A study of Mus musculus with 18 samples.

Results

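NIH3T3 is an immortalized line of mouse embryonic fibroblasts, grown here without heat and without tunicamycin. The 3 unstressed cultures, numbered 1 to 3 as in their labels and collected at 0 min, are the subject, taken by their labels as controls. They are 3 of the 18 mRNA-seq samples of a study that compared them with cells under heat shock or tunicamycin, a drug that blocks N-linked glycosylation, in 6 groups of 3. All groups carried a stably introduced DD-GFP, a destabilizing domain derived from the human protein FKBP12 joined to superfolder GFP, and were sorted for high fluorescence. S1, the ligand that keeps the domain folded, stayed in the medium, which held donor bovine serum. The cells described are therefore a sorted, engineered population of the line in growth medium, and not untouched NIH3T3 cells. Nothing in the labels says that the samples came from separate passages or days, so the SDs measure the spread between these samples and part of it may be technical.

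Fibroblasts are the cells of connective tissue that make and remodel its matrix. They secrete fibrillar collagens, fibronectin and proteoglycans, crosslink them outside the cell, and pull on them through integrins and an actin cytoskeleton. Grown in serum they divide, so that ribosome production and DNA replication run alongside matrix synthesis. Cell identity shows in RNA both by what is abundant and by which genes of other lineages are silent, and both sides are described below.

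Levels are given as RPKM, reads divided by transcript length and by sequencing depth, which allows genes of different length to be compared. A gene was called expressed at 1 RPKM or more in every culture, and silent where no read was counted in any culture. Reads on genes numbered 40134634, 53424821 and 41396793 in cultures 1, 2 and 3. The level that 3 reads represent, the limit that a count of 0 allows, was 0.05615 to 0.07475 CPM (reads scaled by the library total), and covers counting error only.

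Culture 1 stood apart from cultures 2 and 3. The Pearson correlation of log2(RPKM + 1) over all genes was 0.9991 between cultures 2 and 3, against 0.9864 and 0.9870 between culture 1 and each of them. These are correlations across genes, which are not independent replicates. Of 10208 genes with a mean of 100 reads or more, 11 differed over 2-fold between cultures 2 and 3, 895 between 1 and 2, and 843 between 1 and 3. Values of all 3 cultures are therefore printed for the main genes and means for the others, and counts of expressed list members are also given without culture 1 where they differ.

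The files listed 20207 genes, of which 9589, or 47.5%, were expressed and 4778, or 23.6%, were silent. The remaining 5840 genes had reads but fell under 1 RPKM in at least 1 culture. The shares of 47.5% and 23.6% are those to set beside the counts of list and family members below. With cultures 2 and 3 alone, 9863 genes were expressed and 5054 had no read. The levels formed a broad peak near 10 RPKM and a second, lower peak between 0.01 and 0.1 RPKM. The median over all genes was 0.82 RPKM, and over expressed genes 11.5 RPKM. Mean levels reached 100 RPKM in 638 genes and 1000 RPKM in 74 genes. Transcript mass was concentrated, since 208 genes held 50% of the summed RPKM and 3527 held 90%.

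**Figure D1:**
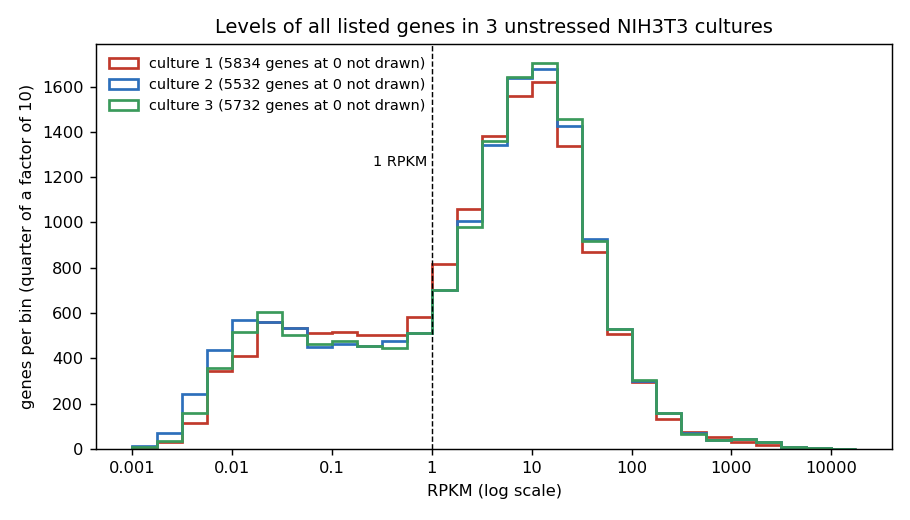
Number of genes (vertical axis) per bin of RPKM (horizontal axis, log scale) in each of the 3 unstressed cultures, with a dashed line at 1 RPKM and genes at 0 left out. All 3 outlines have a main peak near 10 RPKM and a lower one under 0.1 RPKM.

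The leading genes served translation. Cytosolic ribosomal proteins made up 18 of the 30 genes with the highest mean RPKM and 59 of the first 100. The first was Rplp1, an acidic protein of the ribosomal stalk (mm9 chromosome 9, 61761090 to 61762317), with 12780, 6727 and 6781 RPKM in cultures 1, 2 and 3. Culture 1 was high and the other two lay together, so the mean of 8763 RPKM ± 3479 (SD, n = 3) is carried by that culture. Rpl41, which encodes a very short protein of the large subunit (chromosome 10, 127985166 to 127986224), had 8516, 8167 and 8167 RPKM and was first in cultures 2 and 3. Rps28 had 7110, 5155 and 5325 RPKM, and Rps12 had 4952, 4455 and 5226 RPKM. The cultures of Rpl41 and Rplp1 overlapped, so the order of the pair depends on culture 1.

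The first gene outside the ribosome was Lgals1, which encodes galectin 1, a secreted protein that binds galactose-bearing glycans of the matrix and cell surface. It had 4505, 4610 and 4960 RPKM, with a mean of 4692 ± 238 (SD, n = 3), on chromosome 15 from 78757155 to 78760895 of mm9. The elongation factors followed. Eef1a1, which delivers aminoacyl-tRNA to the ribosome, had 3687, 4275 and 4906 RPKM, and Eef2, which drives translocation, had 3727, 2313 and 2512 RPKM. Their ranges overlapped. S100a4, a calcium-binding protein long used as a fibroblast marker, had 2367, 3115 and 3215 RPKM. Fth1, the heavy chain of the iron store ferritin, had 2697, 2766 and 2791 RPKM, and Vim, the intermediate filament of mesenchymal cells, had 2695, 2640 and 2588 RPKM. These last 2 genes were among the steadiest of the leading genes, with SDs of 48.7 and 53.5 RPKM. The cytoplasmic actins differed in steadiness, since Actg1 had 3066, 2545 and 2520 RPKM and Actb had 3247, 1737 and 1559 RPKM. The ratio of Actg1 to Actb was 0.944 in culture 1 and 1.46 and 1.62 in cultures 2 and 3, so which actin led depended on the culture.

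**Figure D2:**
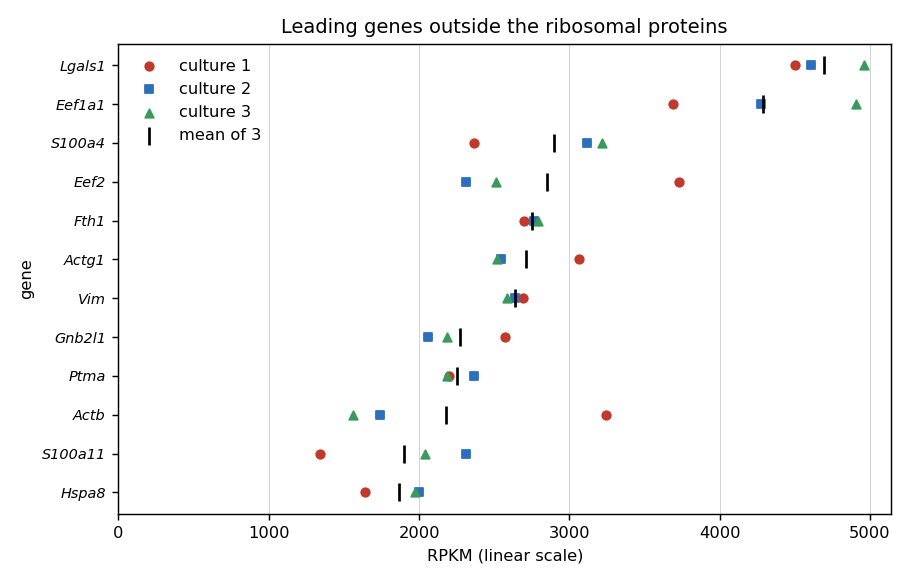
RPKM (horizontal axis, linear scale) of the 12 genes outside the cytosolic ribosomal proteins among the 30 with the highest mean, one gene per line, with a symbol for each culture and a bar at the mean. Eef2 and Actb show culture 1 far to the right of the other two, while Fth1 and Vim show the 3 symbols together.

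The 10 leading genes held 13.3%, 10.2% and 10.6% of the summed RPKM in cultures 1, 2 and 3. Rplp1 alone held 2.96% in culture 1 and 1.48% and 1.46% in the other two. The 100 leading genes held 39.9%, 39.8% and 40.2%, so the cultures differed at the very top and not over the first 100. Ranked by reads in place of reads per length, the order changed to longer transcripts. Eef2 took the most reads on average, 1.40%, 0.869% and 0.936% of those on genes, followed by Eef1a1, by fibronectin Fn1 and by the type I collagen chains Col1a1 and Col1a2. The lists of 10 by RPKM and by reads shared 3 genes.

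Promoter sequences are shown for leading and for silent genes, so that the start regions behind the 2 ends of the range of levels can be seen. The sequences are from RefSeq on GRCm38.p6, a later build than the files use, and cover 250 bases before to 50 after the first listed start of a gene. The windows below were chosen after the levels were seen, 3 from the leading genes and 4 from silent markers of other lineages. They show the 100 bases before the start, 5′ to 3′, with every CpG dinucleotide in capitals. Rpl41 lies at chr10:128549169-128549268 on the minus strand, Rps28 at chr17:33824563-33824662 on the minus strand and Rps12 at chr10:23787210-23787309 on the minus strand. The silent genes are Ptprc, the common leukocyte antigen CD45, at chr1:138175306-138175405 on the minus strand, Alb, serum albumin of the liver, at chr5:90460770-90460869 on the plus strand, Myog, the muscle factor myogenin, at chr1:134289904-134290003 on the plus strand, and Sox2, a factor of stem and neural progenitor cells, at chr3:34649895-34649994 on the plus strand.
Rpl41: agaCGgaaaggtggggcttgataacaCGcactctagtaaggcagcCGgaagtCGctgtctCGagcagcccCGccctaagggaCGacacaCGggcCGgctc
Rps28: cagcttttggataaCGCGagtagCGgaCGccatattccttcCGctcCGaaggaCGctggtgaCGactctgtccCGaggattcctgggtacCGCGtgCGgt
Rps12: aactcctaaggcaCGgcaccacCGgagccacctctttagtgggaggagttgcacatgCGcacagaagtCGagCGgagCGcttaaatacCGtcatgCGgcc
Ptprc: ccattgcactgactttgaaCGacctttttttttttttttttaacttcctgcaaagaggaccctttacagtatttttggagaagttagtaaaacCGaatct
Alb: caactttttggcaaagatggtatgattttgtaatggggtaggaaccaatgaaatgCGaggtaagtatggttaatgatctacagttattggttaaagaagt
Myog: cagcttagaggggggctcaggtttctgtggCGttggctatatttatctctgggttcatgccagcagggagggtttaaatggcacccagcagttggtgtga
Sox2: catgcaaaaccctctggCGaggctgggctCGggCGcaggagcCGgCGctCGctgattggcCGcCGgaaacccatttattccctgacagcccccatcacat

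The 3 ribosomal protein windows hold 8 to 12 CpG dinucleotides, and those of Ptprc, Alb and Myog hold 1 or 2. Sox2 holds 8 and was silent all the same, so of these 7 genes 1 had many CpG and no RNA. A comparison of CpG content or motifs between expressed and silent genes over all promoters was void, since the table gave a promoter for 80.6% of the expressed but for 78.0% of the silent and 77.8% of all genes, and at least 80% of each set was required. These windows are therefore examples only, and nothing is read from them about silent genes as a set.

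The letters TATAAA were searched on the gene's strand from 40 to 16 bases before the start, the place of a TATA box, and were present in 2.22% of the 27025 promoters of the table. Of the 30 leading genes, 21 had a promoter in the table, too few for a share, and S100a4 and Vim among these held the motif. Ppia, cyclophilin A, was the next gene by level that did. Their windows are shown from 45 bases before to 15 after the start, with the motif in capitals, at chr3:90603725-90603784, chr2:13574266-13574325 and chr11:6415822-6415881, all on the plus strand.
S100a4: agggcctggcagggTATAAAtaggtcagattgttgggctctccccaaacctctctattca
Vim: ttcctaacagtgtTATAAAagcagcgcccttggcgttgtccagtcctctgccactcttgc
Ppia: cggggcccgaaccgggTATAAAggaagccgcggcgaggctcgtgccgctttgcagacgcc

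A match of letters is a description of the window and not a measured binding site. The 300 bases around the start held 2 CpG in S100a4, 11 in Vim and 43 in Ppia, so the same motif stood in windows of unlike composition.

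Ribosomal protein genes, whose products enter the ribosome together, took 26.6% ± 0.845 (SD, n = 3) of the summed RPKM and 9.87% ± 0.824 of the reads. Of 86 listed, 83 were expressed, none was silent, and the median was 1082 RPKM. Means lay at 1000 RPKM or more in 46 genes, between 100 and 1000 RPKM in 26 and under 100 RPKM in 14. The exceptions at the bottom include tissue-restricted paralogues. Rpl10l, known from testis, had 0, 0 and 0.0197 RPKM, and Rpl3l, known from muscle, had 0.0396, 0.104 and 0.0586 RPKM. Rpl22l1 had 0.0431, 0.356 and 1.81 RPKM, a wide spread.

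Core subunits were also among the low values. Rps16 had 1.87, 2.96 and 5.10 RPKM, Rps23 had 4.004, 4.618 and 6.407 RPKM and Rpl27 had 8.83, 6.77 and 5.86 RPKM. These are components of every ribosome, and their RNA was listed far below that of Rps12. Ribosomal protein genes have many near-identical processed pseudogenes, and how the authors' counting treated reads that map to several places is not given in the sources used here, so single values of this family are uncertain. Culture 1 lay below both others in 63 of the 86 genes and above both in 17. Of 83 with a mean of 100 reads or more, 16 were over 2-fold below both, against 535 of 10208 among all such genes. Rpl39 had 36.8, 226 and 306 RPKM and Rps25 had 118, 606 and 581 RPKM.

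**Figure D3:**
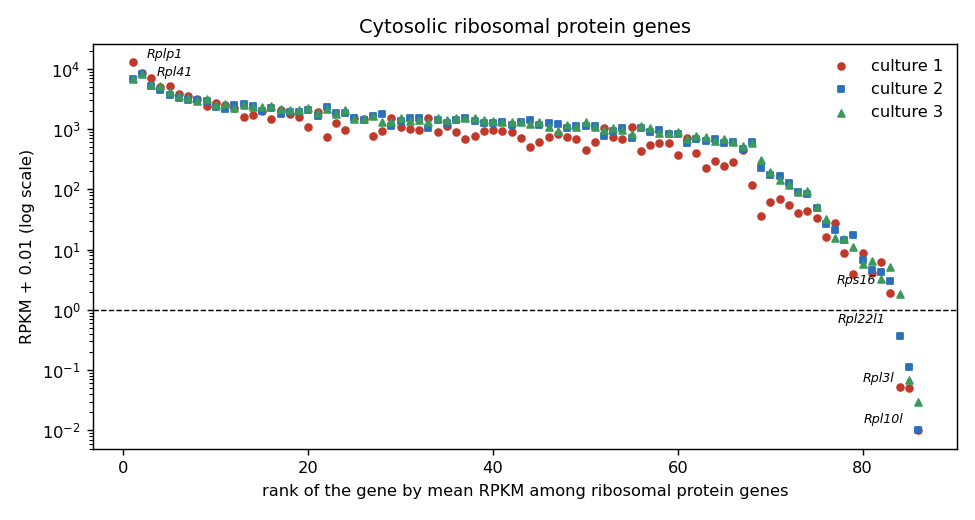
RPKM + 0.01 (vertical axis, log scale) of the 86 cytosolic ribosomal protein genes in order of their mean (horizontal axis), with a symbol for each culture and a dashed line at 1. Most lie above 100 RPKM, culture 1 falls under the other two for many genes, and the order breaks off steeply after about the first 70.

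Other parts of the translation machinery were also abundant, and Eef1a1 and Eif5a each stood far above a paralogue. Of 14 elongation and initiation factors listed, 12 were expressed and 9 exceeded 100 RPKM. Eef1a1 averaged 4289 RPKM while its neuronal and muscle paralogue Eef1a2 averaged 0.0133 RPKM, and Eif5a averaged 999.8 RPKM against 1.70 RPKM for Eif5a2. Eef1a1 has many pseudogenes, and its value is uncertain in the same way as those of the ribosomal proteins.

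Matrix genes followed. Of 12 fibrillar and associated collagens, 9 were expressed, against 47.5% of all genes, with a median of 68.7 RPKM. Type I collagen led, with 1996, 1274 and 1344 RPKM for Col1a1 (chromosome 11, 94797584 to 94813170) and 1207, 1029 and 1165 RPKM for Col1a2 (chromosome 6, 4455697 to 4491543). Col1a1 exceeded Col1a2 in every culture, by 1.65, 1.24 and 1.15 times. Col6a1 had 250, 204 and 226 RPKM and Col3a1 had 117, 108 and 143 RPKM, each well below type I in every culture. Col5a2 and Col5a1, which regulate fibril diameter, averaged 85.9 and 51.5 RPKM. Cartilage collagen Col2a1 averaged 0.00828 RPKM and Col14a1 0.0261 RPKM.

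Glycoproteins and proteoglycans were expressed for 22 of 35 genes, or 62.9%, against 47.5% of all genes. Biglycan Bgn had 1081, 1052 and 965 RPKM, Fn1 had 1067, 816 and 791 RPKM, and fibulin 2 Fbln2 had 917, 659 and 706 RPKM. The related proteoglycans decorin Dcn and lumican Lum, prominent in many tissue fibroblasts, averaged 14.03 and 0.599 RPKM. Elastin Eln averaged 0.0551 RPKM although its partners were present, with Efemp2 at 140 RPKM, Fbln5 at 66.3 RPKM and Fbn1 at 20.9 RPKM. Igfbp2 was silent, and Igfbp3 and Igfbp5 averaged 0.00422 and 0.00580 RPKM, while Igfbp6 averaged 186 RPKM and Igfbp7 averaged 87.2 RPKM.

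Basement membrane genes were also on, with 15 of 21 expressed, or 71.4% against 47.5% of all genes. Sparc, a collagen-binding glycoprotein, had 910, 707 and 732 RPKM, and nidogen Nid1 had 280, 174 and 171 RPKM. The laminin chains present were the beta 1 and gamma 1 chains, Lamb1-1 at 55.5 RPKM and Lamc1 at 55.6 RPKM, whereas the alpha chains stayed low. Lama4 averaged 2.87 RPKM, Lama2 averaged 1.90 RPKM, and Lama1, Lama3 and Lama5 were all under 0.05 RPKM. Hspg2, perlecan, had 176, 84.3 and 76.2 RPKM and was over 2-fold higher in culture 1.

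Enzymes that fold, trim and crosslink collagen were expressed for 18 of 20 genes, and for 19 without culture 1. Serpinh1, the collagen chaperone Hsp47, had 638, 568 and 602 RPKM, and lysyl oxidase Lox had 718, 426 and 508 RPKM. Pcolce, an enhancer of procollagen cleavage, had 496, 342 and 340 RPKM. Among proteases and inhibitors 16 of 24 were expressed, led by cathepsin L Ctsl at 329 RPKM, Timp2 at 222 RPKM and gelatinase A Mmp2 at 191 RPKM, with membrane-type Mmp14 at 114 RPKM. Stromelysin Mmp3, collagenase Mmp13 and Mmp10 were under 0.1 RPKM, and Mmp8 of neutrophils was silent.

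Adhesion receptors were fewer. Of 26 integrin chains 10 were expressed, a share of 38.5% that lies under that of all genes, and 11 without culture 1. Itgb1, the common beta chain, had 59.4, 93.8 and 97.0 RPKM, and the fibronectin receptor chain Itga5 had 49.3, 52.0 and 51.7 RPKM. Itgb5 averaged 42.0 RPKM, Itga3 averaged 22.1 RPKM and Itgav averaged 9.79 RPKM, while among other collagen and laminin receptor chains Itga6 and Itga11 averaged 14.7 and 4.205 RPKM and Itga1 and Itga2 were near 0.1 RPKM. Of 9 cadherins, the mesenchymal Cdh11 at 63.5 RPKM and Cdh2 at 23.9 RPKM were expressed, and the other 7 were under 0.05 RPKM, with Cdh4 and Cdh13 silent.

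The cytoskeleton held several of the highest levels. Of 35 tropomyosins, calponins and actin binders 30 were expressed and 20 exceeded 100 RPKM. Profilin Pfn1 had 1788, 1617 and 1488 RPKM, cofilin Cfl1 had 874, 1156 and 1087 RPKM, and thymosin Tmsb10 had 644, 2369 and 1839 RPKM. Tmsb10, Tmsb4x, Tpm1, Tpm4 and Cfl2 were over 2-fold lower in culture 1 than in both others. Smooth muscle actin Acta2, a marker of contractile fibroblasts, had 642, 627 and 586 RPKM, but other smooth muscle genes did not share its level. Tagln averaged 102 RPKM, Cnn1 averaged 0.461 RPKM and Myh11 averaged 0.0150 RPKM. Skeletal and cardiac actins Acta1 and Actc1 averaged 0.981 and 0.0381 RPKM.

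Of 22 intermediate filament genes 5 were expressed, Vim, the lamins Lmna, Lmnb1 and Lmnb2, and nestin Nes at 2.24 RPKM. Lmna is among 83 genes whose ratio of reads to RPKM differed over 1.1-fold between the 3 files, so its level carries that extra uncertainty. Simple epithelial keratins Krt8 and Krt18 averaged 0.00285 and 0.00490 RPKM. Tubb5 led the tubulins with 1555, 1155 and 1114 RPKM, and neuronal Tubb3 averaged 2.88 RPKM. Among annexins, galectins and S100 proteins 19 of 33 were expressed, or 57.6% against 47.5% of all genes, and 20 without culture 1. They were led by Lgals1, S100a4, S100a11 and S100a6, while S100a8, S100a9 and S100b, of myeloid and glial cells, were under 0.1 RPKM.

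The marker lists of cell types were compared next. Of 30 fibroblast and mesenchymal markers 24 were expressed and 8 exceeded 100 RPKM, with a median of 37.6 RPKM. Beside the matrix genes already given, Thy1, a surface glycoprotein of fibroblasts, had 121, 126 and 127 RPKM. The platelet-derived growth factor receptors Pdgfra and Pdgfrb had 41.6, 39.3 and 43.2 RPKM and 66.5, 42.0 and 43.7 RPKM. Mesenchymal factors Twist2, Snai1 and Twist1 averaged 85.8, 74.6 and 21.8 RPKM. Tcf21 was silent, and Nt5e, Fap and Eng averaged 0.00334, 0.0297 and 0.272 RPKM, so not every fibroblast marker was present.

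No epithelial marker of 20 was expressed, and 7, among them Epcam, Krt5, Cldn3 and Grhl2, were silent. E-cadherin Cdh1 averaged 0.0397 RPKM. Of 15 endothelial markers Flt1 at 2.67 RPKM and Egfl7 at 2.50 RPKM were expressed, and Pecam1, Cdh5 and Kdr were under 0.03 RPKM. Of 19 blood cell markers Cd14 was expressed, at 3.94 RPKM, and Ptprc, Sfpi1, Emr1, Hbb-b1 and Hba-a1 were silent. None of 20 liver and kidney markers was expressed, and Alb, Ttr, Hnf4a, Umod and G6pc were silent. Summed over each of these 4 lists, the markers took 0.00121% of the summed RPKM or less.

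**Figure D4:**
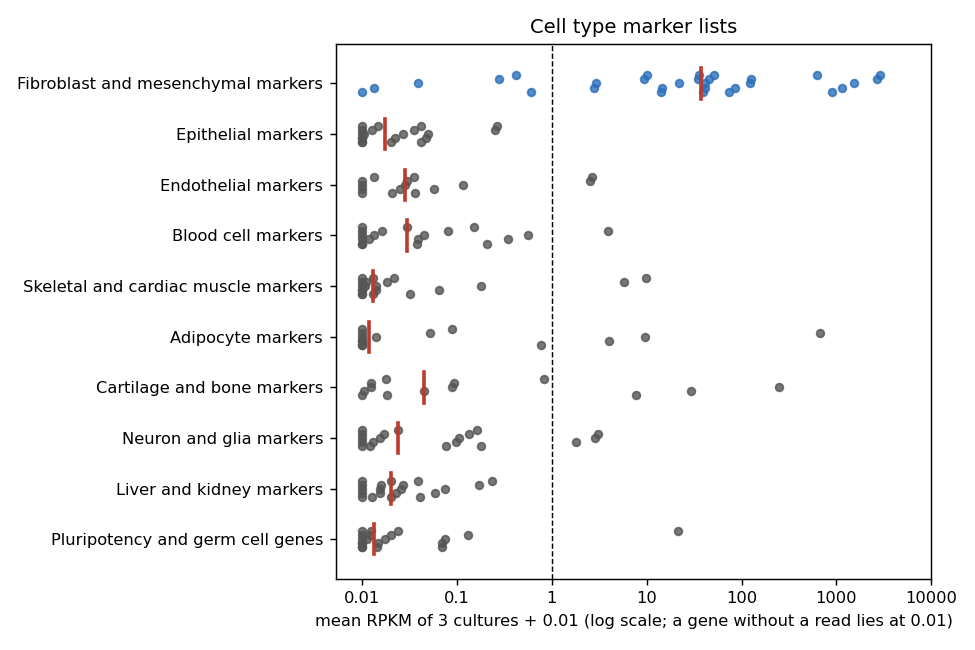
Mean RPKM over the 3 cultures + 0.01 (horizontal axis, log scale) of each gene in 10 cell type marker lists, with a red bar at the median of the list and a dashed line at 1 RPKM. The fibroblast list has its median at 37.6 RPKM and the other 9 lists have theirs under 0.1 RPKM, with single genes far to the right.

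Single genes of other mesenchymal lineages were high within lists that were mostly low. Dlk1, a surface protein that marks preadipocytes, had 748, 611 and 658 RPKM, and Lpl, lipoprotein lipase, and Fabp4, a fatty acid carrier, were expressed at 9.71 and 4.04 RPKM. Of the 14 adipocyte markers 7 were silent, among them Plin, Adipoq, Cebpa and Zfp423. Pparg, the main adipocyte factor, averaged 0.0789 RPKM. Osteopontin Spp1 had 213, 256 and 266 RPKM and the chondrocyte factor Sox9 had 36.0, 28.0 and 23.4 RPKM, and the bone factor Runx2 was expressed at 7.70 RPKM, with a ratio of reads to RPKM that differed by 1.102-fold between cultures. Sp7 was silent and Alpl, Ibsp and Acan were under 0.01 RPKM. Of 20 muscle markers Nkx2-5 at 9.91 RPKM and Tnnt2 at 5.72 RPKM were expressed, and Myod1, Myog, Pax7 and Myh7 were silent. Klf4 at 21.4 RPKM was the expressed 1 of 20 pluripotency and germ cell genes, and Sox2 and Lin28 were silent. Syn1, Tubb3 and Mtap2, at 3.05, 2.88 and 1.80 RPKM, were expressed among 19 neural markers.

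Some genes on the Y chromosome were present at low level. Eif2s3y had 1.98, 3.90 and 3.97 RPKM, Ddx3y had 1.09, 3.01 and 2.95 RPKM and Kdm5d had 0.850, 1.09 and 1.27 RPKM. Uty, Sry and Usp9y averaged 0.168, 0.0933 and 0.000827 RPKM, and Zfy1 and Zfy2 were silent. Xist, the RNA that coats the inactive X chromosome, averaged 0.0243 RPKM. Whether the libraries kept strand is not given in the sources used here, so reads of Xist and of its antisense partner Tsix could not be told apart. Of the 10 genes in this list, Xist and Tsix included, 2 were expressed, or 20% against 47.5% of all genes. Without culture 1 there were 3.

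Sensory and secretory gene families were silent as families. Of 1112 olfactory receptor genes none was expressed and 1068 had no read in any culture, with the highest mean, that of Olfr614, at 0.324 RPKM. For vomeronasal receptors 222 of 247 were silent and V1rd6, at 1.18 RPKM, was expressed. Without culture 1 there were 2 expressed, since V1rd4 had 0.590, 1.33 and 1.09 RPKM. All 15 trace amine receptors and all 12 major urinary proteins were silent, as were 47 of 49 keratin-associated proteins, 53 of 56 defensins and 32 of 37 taste receptors. These counts stand against 23.6% silent among all genes. Of 47 keratins, Krt80 at 4.39 RPKM and Krt10 at 2.31 RPKM were expressed, and of 22 claudins of tight junctions Cldn12 was, at 11.9 RPKM.

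Of 19 gap junction genes 4 were expressed, among them Gja1, connexin 43, at 20.2 RPKM. Of 22 voltage-gated potassium channels 2 were expressed, and of 43 glutamate and GABA receptors 4, or 5 without culture 1, led by Grik2 at 7.54 RPKM. Among 94 cytochromes P450 12 were expressed and 47 silent, and the leading one was Cyp51, the sterol demethylase, at 56.1 RPKM. Of 325 solute carriers 134 were expressed, or 41.2% against 47.5% of all genes, and 138 without culture 1. They were led by the mitochondrial adenine nucleotide and phosphate carriers Slc25a4 at 496 RPKM and Slc25a3 at 451 RPKM. Of 58 serpins 6 were expressed, or 7 without culture 1, and Serpinh1 and Serpinf1, the latter at 454 RPKM, stood far above the rest.

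Replication-dependent histone genes, whose mRNA ends without a poly(A) tail, were listed low, with 9 of 64 expressed and a median of 0.169 RPKM. Without culture 1, 14 were expressed, over 1.5 times as many. The libraries were made from poly(A) RNA, so these levels do not measure histone synthesis. Variant histones and chromatin proteins with tailed mRNA were high, with 16 of 18 expressed. H2afz averaged 407 RPKM, and the architectural proteins Hmga1 and Hmga2, abundant in embryonic cells, averaged 1097 and 110 RPKM. Zinc finger genes named Zfp were expressed for 174 of 306, or 56.9% against 47.5% of all genes, and for 188 without culture 1.

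The cells carried the RNA of dividing cells. All 30 proliferation genes were expressed, with a median of 55.7 RPKM. Pcna, the sliding clamp of DNA polymerase, had 232, 263 and 288 RPKM, Cdc20, an activator of the anaphase-promoting complex, had 152, 186 and 178 RPKM, and Mki67 had 11.6, 28.0 and 24.8 RPKM. Mki67, Top2a, Bub1 and Tpx2 were over 2-fold lower in culture 1. Of 27 cyclins, kinases and inhibitors 20 were expressed, and 21 without culture 1. Cdk4 had 236, 334 and 333 RPKM and Ccnd1 had 127, 154 and 140 RPKM, whereas Cdk6 averaged 7.33 RPKM. The ratio of Cdk4 to Cdk6 was 23.0, 58.3 and 55.5. Ccna1 and Ccnb3, of germ cells, and the imprinted inhibitor Cdkn1c were silent.

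The Ink4a/Arf locus had no read. Cdkn2a (chromosome 4, 88920377 to 88928096) and its neighbour Cdkn2b (88952198 to 88956941) stood at 0 in all 3 cultures, while Mtap, a neighbour toward lower coordinates (88783274 to 88826994), had 59.8, 94.9 and 95.3 RPKM. Loss of Cdkn2a is a known feature of this line, and RNA counts by themselves cannot tell a deleted gene from a silent one. Trp53, which the Arf product of Cdkn2a protects through Mdm2, had 169, 172 and 161 RPKM. Among p53 targets, Bax averaged 122 RPKM, Cdkn1a averaged 42.4 RPKM and Mdm2 averaged 20.5 RPKM. Rb1 averaged 0.372 RPKM, against 6.33 RPKM for Rbl1 and 4.22 RPKM for Rbl2, the other members of the retinoblastoma family. The relatives Trp63 and Trp73 were near 0.01 RPKM or below.

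Of 54 genes listed as receptor tyrosine kinases, 25 were expressed, and 26 without culture 1. The share of 46.3% is close to the 47.5% of all genes. The list includes Igf2r, a receptor without a kinase domain, which was among those expressed. Axl led with 398, 284 and 281 RPKM, over Fgfr1 with 108, 71.3 and 75.5 RPKM and the platelet-derived growth factor receptors. Kit, Alk, Erbb4 and Flt3 were among 12 silent members of the 54, beside 23.6% silent among all genes. Of 61 secreted factors 32 were expressed, or 52.5%, near the 47.5% of all genes. Mif, a cytokine and tautomerase, had 1285, 1151 and 1016 RPKM, far above colony stimulating factor Csf1 at 121 RPKM, pleiotrophin Ptn at 78.4 RPKM and the chemokine Ccl2. Ccl2 had 111, 49.5 and 47.4 RPKM, over 2-fold higher in culture 1. Il1a, Il1b, Bmp2 and Bmp7 were silent, and Il6 and Tnf averaged 0.0804 and 0.00848 RPKM.

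Of 50 Wnt, Hedgehog and Notch components 21 were expressed, or 42% against 47.5% of all genes. Silent were 7 of them, beside 23.6% of all genes. In Hedgehog and in Wnt signalling, some receptors and transducers were listed above the ligands named here of the same pathway. Smo, the Hedgehog signal transducer, averaged 89.1 RPKM and the receptor Ptch1 averaged 3.21 RPKM, while the ligand Shh was silent and Ihh and Dhh were under 0.06 RPKM. The Hedgehog target Gli1 averaged 0.167 RPKM. For Wnt, beta-catenin Ctnnb1 averaged 166 RPKM and Fzd2 averaged 43.7 RPKM, and of the ligands in the list Wnt5a was expressed, at 6.60 RPKM, and Wnt9a had 1.41, 1.11 and 0.993 RPKM, with the target Axin2 at 0.0722 RPKM. Notch2 had 33.4, 16.6 and 16.2 RPKM and Notch1 averaged 0.769 RPKM. For TGF-beta, 16 of 19 receptors and SMADs were expressed, led by Smad4 at 28.8 RPKM. Actin- and YAP-linked genes were expressed for 15 of 16, with Ctgf at 190, 186 and 174 RPKM and Ankrd1 at 27.7, 45.4 and 39.3 RPKM.

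Chaperones were abundant without stress through their constitutive members. Of 34 cytosolic chaperones and their regulators 27 were expressed. Hspa8, the constitutive HSP70, had 1638, 1997 and 1975 RPKM, and Hsp90ab1 had 971, 1664 and 1687 RPKM. The heat-inducible Hspa1a and Hspa1b averaged 0.522 and 1.75 RPKM, and Hspb1 averaged 0.103 RPKM. Other small heat shock proteins differed from it, with Cryab at 153, 145 and 130 RPKM and Hspb8 at 34.7, 46.6 and 49.5 RPKM. The subunits of the chaperonin TRiC lay between 73.8 RPKM for Cct8 and 301 RPKM for Cct5. Tcp1 and Cct8 were over 2-fold lower in culture 1.

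In the endoplasmic reticulum, 24 of 27 folding and stress genes were expressed, and 25 without culture 1. Calreticulin Calr had 509, 742 and 784 RPKM, Hspa5, the chaperone BiP, had 212, 233 and 255 RPKM, and P4hb, a disulfide isomerase that is also a subunit of prolyl hydroxylase, had 216, 315 and 316 RPKM. Transcription factors of the stress response were present at rest, with Atf4 at 225, 246 and 243 RPKM and Ddit3 at 69.6, 68.9 and 72.8 RPKM. Dnajb9, which is induced by Xbp1, had 0.419, 1.72 and 1.39 RPKM, so it fell under the threshold in culture 1. Hsp90b1 had 65.8, 194 and 222 RPKM and Pdia3 had 44.0, 112 and 115 RPKM. Both, like Dnajb9, were over 2-fold lower in culture 1. Of 40 proteasome subunits 36 were expressed with a median of 88.0 RPKM.

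Of 22 glycolysis genes 15 were expressed and 8 exceeded 100 RPKM. Pyruvate kinase Pkm2 had 1402, 1388 and 1423 RPKM, Aldoa had 747, 815 and 734 RPKM and Ldha had 800, 655 and 706 RPKM. Gapdh, with many pseudogenes, spread from 368 RPKM in culture 1 to 1015 and 715 RPKM in cultures 2 and 3. Some isozymes known from single tissues were expressed. Eno2, the enolase known from neurons, had 28.7, 13.1 and 15.04 RPKM, over 2-fold higher in culture 1, and Eno3, known from muscle, averaged 12.2 RPKM. Their paralogue Eno1 had 46.8, 140.8 and 101.4 RPKM, over 2-fold lower in culture 1. How reads that map to several places were counted is not known here, so single enolase levels are uncertain. The liver and testis isozymes Pklr, Ldhc and Pgk2 were at 0.01 RPKM or below. Slc2a1, the basal glucose transporter, had 78.2, 64.2 and 62.3 RPKM, Slc2a3 and Slc2a4 were under 0.06 RPKM, and Slc2a2 and Hk3 were silent. Hk1 averaged 28.4 RPKM and Hk2 averaged 10.8 RPKM.

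Sterol and fatty acid synthesis was on, with 21 of 25 genes expressed. Fdps had 171, 294 and 291 RPKM, Scd2 had 234, 245 and 232 RPKM and Fasn had 197, 136 and 126 RPKM. Scd2 stood above Scd1, at 45.9 RPKM, and Scd3 and Scd4 were under 1 RPKM. Respiratory complex I was expressed for 37 of 38 subunits with a median of 76.7 RPKM. Isoforms of cytochrome oxidase were uneven, with Cox6a1 at 705 RPKM against Cox6a2 at 1.22 RPKM, and Cox4i1 at 563 RPKM against Cox4i2 at 0.0165 RPKM. Urea cycle and gluconeogenic enzymes Otc, G6pc and Fbp1 were silent, and Pck2, the mitochondrial carboxykinase, averaged 50.8 RPKM against 0.0593 RPKM for Pck1.

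Of 34 class I and interferon genes 17 were expressed, or 50%, near the 47.5% of all genes. B2m had 125, 303 and 273 RPKM and H2-D1 had 120, 81.0 and 82.5 RPKM, but the inducible subunits Psmb9 and Psmb8 averaged 0.497 and 0.0112 RPKM and the transporter chains Tap2 and Tap1 5.65 and 1.67 RPKM. Interferon-induced Ifit1, Ifit3, Irf7 and Mx1 were all under 0.3 RPKM, and class II H2-Aa was silent. Immediate-early genes were expressed for 23 of 30, and for 24 without culture 1, with Myc at 56.6, 73.7 and 67.1 RPKM, Jun at 44.8, 53.4 and 50.7 RPKM and Egr1 at 47.7, 42.1 and 34.8 RPKM. Fos, Fosb and Atf3 averaged 0.461, 0.420 and 0.445 RPKM.

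Fkbp1a, the mouse gene for FKBP12, had 395, 346 and 313 RPKM. The cells carry a human FKBP12-derived domain, and whether its reads were counted on Fkbp1a was not tested, so this level does not separate the gene from the transgene. No entry for GFP was among the genes listed.

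The spread between cultures came mainly with culture 1. Over the 10208 genes with a mean of 100 reads or more, scaled by TMM, the median coefficient of variation (CV, the SD over the mean) was 15.2%, with quartiles of 8.29% and 24.9%. Between cultures 2 and 3 alone the median was 4.296%, against 17.9% between 1 and 2 and 17.5% between 1 and 3. Counting error alone, taken per gene as the inverse square root of its mean reads, had a median of 2.52%. That is not a sample CV of 2 or 3 cultures, so it is only a rough guide to the values above. The common biological coefficient of variation of edgeR was 0.236 for all 3 and 0.0621 without culture 1. Culture 1 lay over 2-fold above both others in 157 genes and over 2-fold below both in 535. For culture 2 these counts were 1 and 5, and for culture 3 they were 2 and 0.

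Genes below in culture 1 had a lower GC content. The longest coding transcript gave a GC content for 10067 of the 10208 genes. In the lowest of 10 equal groups, with a median GC content of 40.5%, the median log2 ratio of culture 1 to the mean of the others was -0.58. In the highest, at 59.9%, it was 0.40, and it rose in each group between. Spearman's rho across genes was 0.55, against -0.02 for culture 3 over culture 2, and these genes share their libraries and are not independent. The median GC content was 43.3% for the 535 genes below and 53.5% for the 157 genes above, with 50.3% over all. The study's methods describe 2 routes of library preparation without saying in the sources used here which sample went through which. Its part in the result was not tested.

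**Figure D5:**
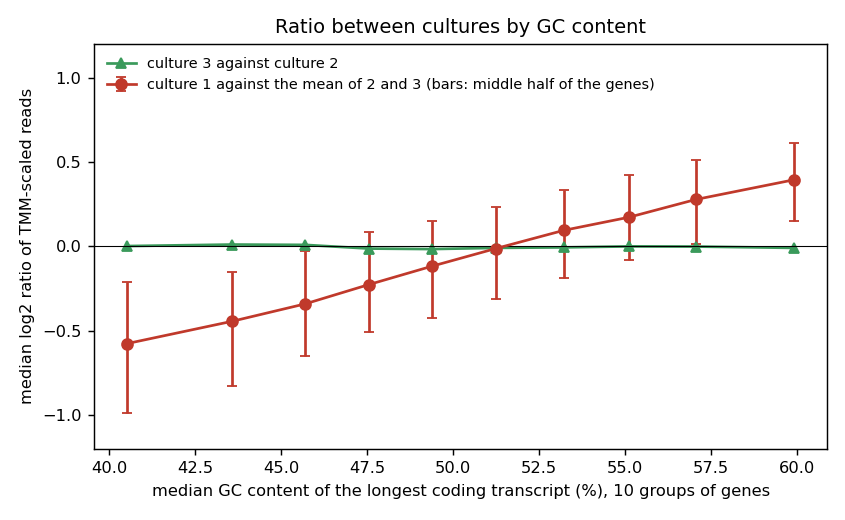
Median log2 ratio of TMM-scaled reads (vertical axis) against the median GC content of the longest coding transcript (horizontal axis, %) for 10 groups of genes; red circles give culture 1 over the mean of cultures 2 and 3, with bars between the quartiles of the genes, and green triangles give culture 3 over culture 2. The red line climbs from -0.58 to 0.40 and the green line stays within 0.02 of 0.

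The functions described above were not spread alike over this difference. Ribosomal proteins had a median log2 ratio of -0.47 in culture 1, cytosolic chaperones -0.46, proliferation genes -0.41 and proteasome subunits -0.40, against -0.05 over all genes. Collagens stood at 0.19, receptor tyrosine kinases at 0.34 and solute carriers at 0.24. These are medians of lists, and single members went the other way, such as Rplp1 among the ribosomal proteins and Col5a2, with 64.0, 93.4 and 100.2 RPKM, among the collagens.

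The genes with the largest CV were mostly high in culture 1. Rnf138, a ubiquitin ligase, had 35.5, 3.63 and 4.76 RPKM, Nlk, a kinase that acts on Wnt signalling, had 41.0, 5.15 and 6.22 RPKM, and Vgll3, a cofactor of TEAD factors, had 111, 20.9 and 23.9 RPKM. Gtf2a1, a subunit of the general factor TFIIA, had 22.7, 4.09 and 4.58 RPKM and Nufip2 had 29.2, 5.69 and 5.52 RPKM. The GC content of Rnf138, Nlk, Vgll3, Gtf2a1 and Nufip2 was 37.7%, 46.05%, 42.5%, 42.3% and 39.2%. Each lay under the median of 50.3% over all genes, so these genes went against the trend with GC content given above. Others of the 15 lay above that median, such as Mafa at 71.0% and Hrct1 at 56.0%, both also highest in culture 1. Of the 15 genes with the largest CV, Dopey2 alone was not highest in culture 1. It had 15.6 TMM-scaled CPM in culture 3 against 2.70 and 1.83 in cultures 1 and 2. Its RPKM were 2.64, 1.87 and 1.81, so its reads and RPKM did not run together, as for Ggn. Such genes, with a ratio of reads to RPKM that differed over 1.1-fold between files, numbered 83, and in 63 of them the files listed different coordinates.

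The steadiest genes served many functions. Txndc5, a disulfide isomerase of the endoplasmic reticulum, had 454.4, 453.6 and 454.1 TMM-scaled CPM and a CV of 0.0810%. Bat1a, an RNA helicase of mRNA export, had a CV of 0.170%, the helicase Ercc3 of TFIIH one of 0.170% and Sdha, the flavoprotein of succinate dehydrogenase, one of 0.302%. These values lie under what counting error would give for such genes, as the smallest of 10208 can, and so do not measure their true spread.

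Of 15 genes often used to scale other assays, picked here after the spread was seen, 7 had a CV under the median of all genes. Sdha, Gusb at 3.73% and Ywhaz at 7.56% were among the steadiest. Actb at 45.9%, Ppia at 45.3%, Gapdh at 44.9% and B2m at 38.97% were the most variable. In TMM-scaled reads Actb was 2.07-fold higher in culture 1 than the mean of the others, and Ppia, Gapdh and B2m were at 0.381, 0.447 and 0.457 of that mean.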

How the data were processed

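Total RNA of the 3 unstressed cultures was selected for poly(A), sequenced on an Illumina instrument, and aligned to mm9 and counted on RefSeq genes by the authors with the DNAnexus platform. The aligner and the counter used there are not given in the sources used here. Each deposited table from the authors lists an estimated count per gene, with 4 significant digits and 19.3% to 20.9% of low values not whole, and an RPKM value for each gene. The RPKM denominators, recovered from 1570 genes with 1 coding transcript, were 48600000, 64800000 and 49800000 reads, of which 82.5% to 83.2% lay on genes. A Z-score and a scaled RPKM in the same files were not used, nor were the other 15 samples. Values were joined by gene name, and coordinates that differed between the files (289 genes) were left out. Older symbols were matched through RefSeq synonyms.

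RPKM were described by level, list and family, with no test, since there is 1 group. Estimated counts were rounded for edgeR 4.0.16 (TMM, common dispersion, genes with a read in every culture) and DESeq2 1.42.0 size factors in R 4.3.3. The dispersion step was tested on simulated data. Descriptions were computed with pandas 2.3.3, numpy 2.4.6 and scipy 1.17.1 under Python 3.11.15 and drawn with matplotlib 3.10.9. Chi-square per degree of freedom between cultures was 15.1 to 258. Genes with coordinates that differ between the files entered it, so it cannot by itself tell whether 2 names stand for 1 library. The cultures, lists and families were chosen with earlier results of these data known. The genes named are the 30 highest by RPKM, the 10 highest by reads, members of the lists, the 5 highest of each family, and the 15 largest and 15 smallest CV among genes with a mean of 100 reads or more; reference genes were added after the values were seen. Alternatives were other thresholds, scalings, filters, pseudocounts and leaving out each culture. Some genes that this rule names are not reported here.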

Additional observations from a re-analysis of the deposited data

How the results depend on the processing

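The number of expressed genes stayed within 1.5 times of 9589 under every alternative, from 7764 at 3 RPKM to 10383 after rescaling RPKM to TPM, and from 9608 to 9863 when 1 culture was left out. The number of silent genes ran from 5054 to 5177 when 1 culture was left out and was 6010 for fewer than 3 reads summed over the cultures. The 10 leading genes held 11.4% of the summed RPKM on average, 10.5% to 11.98% when 1 culture was left out, and 7.38% when both the genes and the share were taken by reads, which weighs long transcripts more. Leaving out 1 culture moved the median CV between 4.296% and 17.9%, the common biological coefficient of variation between 0.0621 and 0.292, and the lowest correlation between 0.9864 and 0.9991, in each case with the most even value when culture 1 was the one left out. TMM, total counts and DESeq2 size factors gave median CVs of 15.2% to 15.3%. The lowest correlation was 0.9594 over expressed genes alone, where the many genes near 0 no longer enter. Of 88 lists and families, the number of expressed members stayed within 1.5 times in 63 at 3 RPKM, in 87 at 0.5 RPKM, in 85 after rescaling to TPM and in 86 without culture 1. Genes at 0 and genes with few reads are limited by depth, at 3 reads or less per library. No paired analysis was possible because the report rests on 1 group and on no test.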

Other observations

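Transcription factors known from several body regions were expressed. Foxm1, a forkhead factor that acts in dividing cells, averaged 51.9 RPKM. The GATA factors of heart and gut, Gata6 with 15.6, 3.11 and 3.80 RPKM and Gata4 at 4.51 RPKM, and Gata2 at 9.02 RPKM were expressed, and of the T-box genes Tbx15 led at 17.9 RPKM. Of 39 Hox genes 14 were expressed, or 35.9% against 47.5% of all genes, and 7 were silent, beside 23.6% of all genes. They were led by Hoxa3, Hoxa5 and Hoxd8 at 11.2, 10.3 and 8.61 RPKM. Pax9 had 4.93, 2.12 and 2.23 RPKM and was the expressed 1 of 9 Pax genes.

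Imprinted genes were expressed for 16 of 31 listed, or 51.6%, near the 47.5% of all genes. Those of the Dlk1 region on chromosome 12 of mm9 were expressed in coding and noncoding members, with the protein-coding Dlk1 (110691433 to 110698901) at 672 RPKM and the noncoding Meg3 (110779206 to 110809938), Rian (110842155 to 110899919) and Mirg (110973191 to 110987665) at 37.3, 41.2 and 21.04 RPKM, while Rtl1 between them averaged 0.277 RPKM. Without alleles in the files, the parental copy cannot be read. Gnas averaged 727 RPKM and Grb10 averaged 87.3 RPKM. Igf2 averaged 16.5 RPKM and H19, its neighbour, 1.14 RPKM, and Phlda2 and Cdkn1c were silent.

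The proliferins Prl2c2 and Prl2c3, placental hormones first found in growing 3T3 cells, averaged 5.10 and 3.94 RPKM. Of the 18 genes in their list 10 were silent, against 23.6% of all genes. Prl2c2 and Prl2c3 are near-identical copies, and how their reads were divided is uncertain. Prl2c2 had 1.53, 6.83 and 6.95 RPKM, with culture 1 low.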
